A study of Homo sapiens with 12 samples.

Results

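LINC genes are long noncoding RNA genes that mostly lie between protein-coding genes and carry a systematic symbol, LINC and a number, instead of a functional name. They were followed here in A375 cells, an established human melanoma cell line with a mutant, constantly active BRAF kinase. Members were all genes with such a symbol whose mean over the 12 samples was at least 0.5 CPM (the gene's count divided by the sample's total count, times 1000000). That gave 227 genes of the 58347 in the count files. The files list 2239 LINC genes, and 595 of them had no read in any sample. The members were thus chosen by their mean level over all samples, treated ones included.

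Poly(A) RNA was sequenced after 8 h with the DMSO vehicle, with tretinoin, with vemurafenib, or with vemurafenib and tretinoin together (the combination), each labelled 5 µM, in 3 replicates per treatment. Tretinoin is all-trans retinoic acid, which binds the retinoic acid receptors, and vemurafenib inhibits mutant BRAF and so lowers ERK signalling. All samples were 1 cell line, and no label says that replicates came from separate cultures, so p-values measure the spread between these samples.

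Long intergenic noncoding RNAs are mostly transcribed by RNA polymerase II, spliced and polyadenylated like messenger RNAs, but do not encode a conserved protein. Many are made at low levels and in few cell types. Some act at the chromatin or the neighbouring genes where they are made, others bind proteins or microRNAs elsewhere, and for most of them no function is known.

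Total counts were between 13510235 and 21534377 per sample. In vemurafenib, 14 of 14 genes of ERK output (DUSP6, SPRY4 and others) were lower than in DMSO by the test described below, and in tretinoin 5 of 9 tested retinoid response genes were higher. Of 10 melanocyte lineage markers, 6 were tested, and with vemurafenib 2 were called up and 0 down, beside 26.4% and 26.3% of all genes tested. MITF stood at a mean of 17.6 CPM in DMSO and 32.3 in vemurafenib (adjusted p = 1.25e-06), and SOX10 was at 0 in every sample. PMEL (1.16 CPM in DMSO, 0.789 in vemurafenib) and PAX3 (12.04 and 11.41) were lower in vemurafenib but not called. Summed marker levels reached at most 4.89 CPM for immune, 17.2 for endothelial, 15.8 for fibroblast and 35.9 for epithelial genes. The epithelial sum was 12.6 to 16.8 CPM in DMSO and 29.4 to 32.2 in vemurafenib, mostly KRT14, and EPCAM and CDH1 stayed under 0.6 CPM. The endothelial sum was 5.28 to 6.54 CPM in DMSO and 12.7 to 17.2 in tretinoin, mostly CDH5, with VWF under 1.1 CPM in both. In vemurafenib it was 2.4 to 3.16 CPM, and the markers moved in opposite directions. CDH5 fell from a mean of 4.56 CPM in DMSO to 0.137, and VWF was called up, from 0.482 to 2.08 (adjusted p = 0.00132). The fibroblast sum was 5.54 to 7.75 CPM in DMSO and 14.2 to 15.8 in vemurafenib, where COL1A1 and LUM were called up. PTPRC, the only immune marker tested, was called up in tretinoin (adjusted p = 0.0121) and vemurafenib (adjusted p = 0.00161), from a mean of 1.11 CPM in DMSO to 3.02 and 2.79. The part of these shifts in the results below was not tested.

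The members spanned a wide range of levels. Their mean CPM ran from 0.506 to 133 with a median of 1.5, and 132 of the 227 (58.1%) were under 2 CPM. Only 29 reached 10 CPM and 2 reached 100 CPM. Per kilobase of exon, which allows genes to be compared, the median was 0.769 CPM and the highest value 86.7 CPM, in LINC01419. Just inside the limit were LINC00508 at 0.506, LINC02762 at 0.511 and LINC01518 at 0.515 CPM, and just outside it LINC00649 at 0.497, LINC01882 at 0.497 and LINC02084 at 0.493 CPM.

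The name covers several kinds of gene. GENCODE 29 types 181 of the 227 members as lincRNA, and the other 46 include 19 processed transcripts, 11 transcribed unprocessed pseudogenes, 6 antisense genes and 1 protein-coding gene, LINC02693. In 209 members the gene body overlapped no protein-coding gene. The nearest protein-coding gene lay a median of 31.0 kb away, within 10 kb for 68 members and beyond 100 kb for 66. Exon bases were shared with another annotated gene in 67 members, and 54 had at least 150 bases at 98% identity or more in common with another gene. Reads of such genes are uncertain, since counting ignored the strand and fragments in shared bases may be dropped or misplaced.

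The 2 most abundant members were LINC01419 and LINC01029. LINC01419 (chromosome 8, 83403758 to 83408900, GRCh38) measured 117, 112 and 122 TMM-adjusted CPM in DMSO, 128, 118 and 114 in tretinoin, 145, 133 and 134 in vemurafenib, and 142, 154 and 164 in the combination. TMM-adjusted CPM is CPM after scaling by edgeR's trimmed mean of M-values. The marker and per-kilobase values above and all sample values from here on are on this scale. The combination and DMSO replicates did not overlap, and the call in vemurafenib (adjusted p = 0.0117) was lost in 2 of 12 fits that each left out 1 sample, with an adjusted p of up to 0.0700 without vemurafenib replicate 1. LINC01029 (chromosome 18, 77971294 to 77993722) was at 95.5 ± 2.78 CPM (SD, n = 3) in DMSO and 124 ± 0.567 in vemurafenib. Next came LINC00511, an RNA associated with several cancers, at 50.9 ± 4.38 CPM in DMSO and 110 ± 4.62 in vemurafenib. LINC00665, LINC03061, LINC00963, LINC01128 and LINC00960 followed at means of 43.6, 42.2, 29.4, 21.9 and 20.6 CPM over the 12 samples.

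Summed over the 227 members, RNA levels were 1083, 1047 and 1112 CPM in DMSO, 1203, 1128 and 1152 in tretinoin, 1259, 1211 and 1258 in vemurafenib, and 1322, 1371 and 1381 in the combination. No replicate of one treatment overlapped those of another in the 5 pairs compared. The combination exceeded DMSO by 278 CPM, a ratio of 1.26. In every pair the exact two-sided permutation test gave p = 0.1, the smallest value that 3 against 3 samples allow, and 0.1 after adjustment over the 5 pairs. Without LINC01419 the difference between the combination and DMSO was 241 CPM. LINC00511, which rose by more CPM than LINC01419, stayed in that sum, and a sum without LINC00511 was not computed. A higher level per cell and a larger share of cells making an RNA cannot be told apart in these bulk samples.

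More members rose than fell with vemurafenib. By the quasi-likelihood test of edgeR, with p-values adjusted after Benjamini and Hochberg over all 16740 genes tested and called under 0.05, 75 of the 227 members rose and 26 fell relative to DMSO. Over all genes tested, 26.4% rose and 26.3% fell, against 33.0% and 11.5% of the members. Both directions together, 101 of the 227 members were called, beside 8811 of the 16740 genes. The background rests on the scaling: with total counts in place of TMM, 6575 genes rose and 2628 fell, and 101 members rose and 21 fell. All 227 members passed the filter on low counts. The median log2 fold change was 0.33 over the members and 0.02 over all genes tested. The 3 vemurafenib replicates lay wholly above the 3 DMSO replicates in 88 of the 227 members and wholly below in 33. Over all genes these shares were 30.9% and 31.0%. Of 1217 other long noncoding genes at 0.5 CPM or more, 30.5% rose and 9.94% fell, and of 13241 protein-coding genes 26.9% rose and 30.4% fell.

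The share that fell differed with the level of the genes. Between 0.5 and 1 CPM, 24 of 79 members rose and 3 fell, and of the 822 protein-coding genes at that level 30.5% rose and 5.96% fell. From 1 to 2 CPM, 13 of 53 members rose and 3 fell, beside 37.9% and 8.68% of protein-coding genes. From 2 to 5 CPM, 23 of 46 members rose and 11 fell, beside 44.1% and 12.5% of protein-coding genes. From 5 to 20 CPM, 11 of 40 members rose and 8 fell, beside 37.4% and 22% of protein-coding genes. Above 20 CPM, 4 of 9 members rose and 1 fell, beside 18.6% and 41.3% of protein-coding genes. Of the 55 other long noncoding genes at that level, 30.9% rose and 34.5% fell. The mean-based limit also admitted 38 members that were under 0.5 CPM in DMSO, and 25 of these rose with vemurafenib, as genes let in by their treated samples must tend to. Of the 189 others, 50 rose and 26 fell, beside 26.4% and 26.3% of all genes tested.

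**Figure D1:**
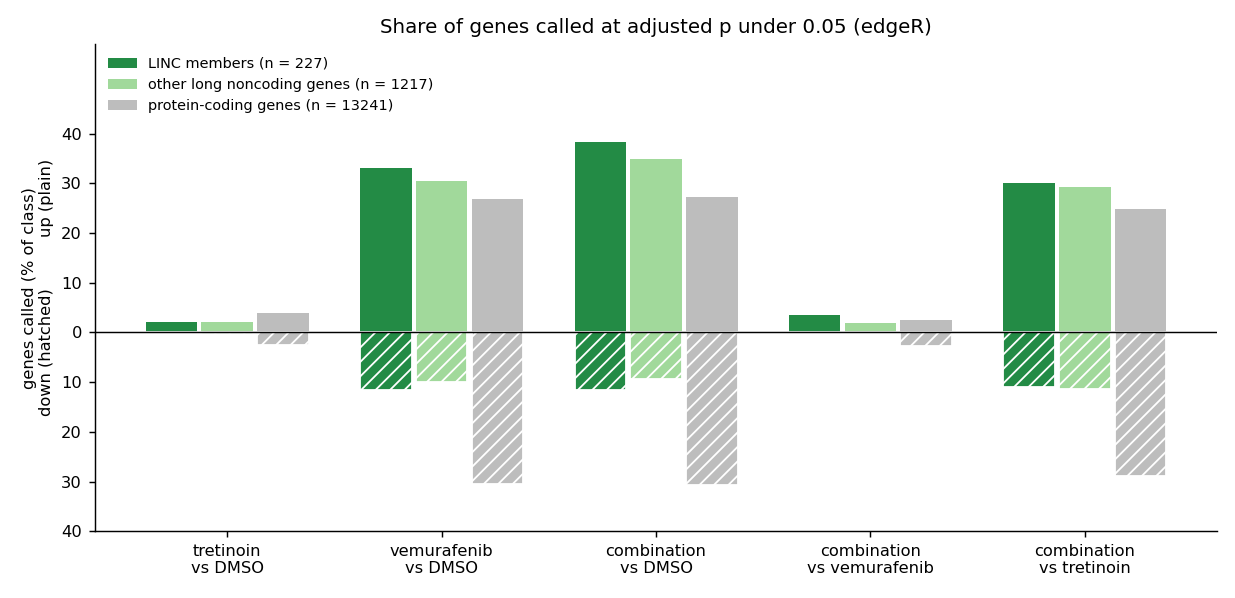
Bars show the percentage of genes called up (plain, upward) or down (hatched, downward) at an adjusted p under 0.05 in 5 comparisons, for the LINC members, other long noncoding genes and protein-coding genes at 0.5 CPM or more. With vemurafenib 33.0% of the members rose and 11.5% fell, and both noncoding classes had fewer calls downward than protein-coding genes.

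**Figure D2:**
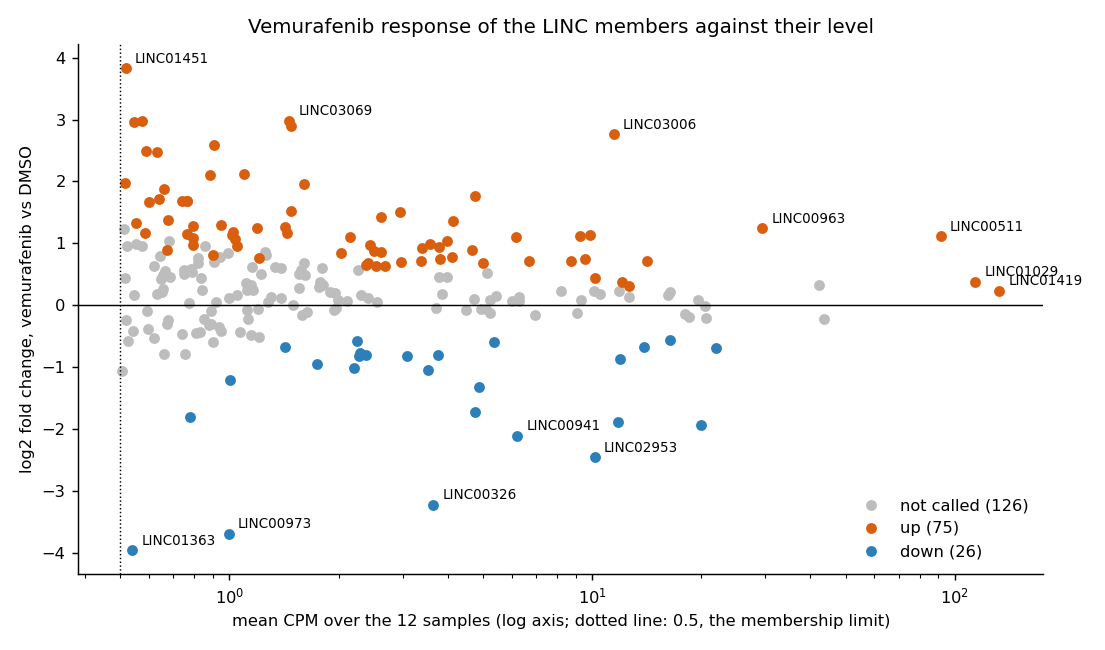
Each point is 1 of the 227 members, placed by its mean CPM over the 12 samples (log axis) and its log2 fold change in vemurafenib relative to DMSO, and coloured by the call. The largest changes in both directions lie at low levels, and LINC00511, LINC01029 and LINC01419 are called up at the right edge.

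Of the members lowered by vemurafenib, the 12 largest falls with replicates apart from DMSO ran from -3.96 in LINC01363 to -1.04 in LINC01293 on the log2 scale. LINC00973 (ENSG00000240476.1, chromosome 3, 98981058 to 98983096, plus strand) measured 1.74, 2.43 and 2.21 CPM in DMSO, 1.68, 1.74 and 1.70 in tretinoin, 0.104, 0.288 and 0.0600 in vemurafenib, and 0.220, 0.185 and 0.136 in the combination. All samples with vemurafenib were below all samples without it. The log2 fold change was -3.69 (SE 0.39, adjusted p = 4.38e-07) for vemurafenib and -3.53 (SE 0.37, adjusted p = 4.48e-07) for the combination, each relative to DMSO.

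LINC00326 on chromosome 6 measured 6.57, 5.53 and 6.33 CPM in DMSO and 0.674, 0.480 and 0.840 in vemurafenib. It fell 9.32-fold, a log2 fold change of -3.22 (SE 0.24, adjusted p = 6.62e-09). LINC02953 on chromosome 11 measured 19.3, 21.5 and 19.1 CPM in DMSO and 2.85, 3.60 and 4.50 in vemurafenib (log2 fold change -2.46, SE 0.16, adjusted p = 8.22e-10). LINC00941, studied in several carcinomas, starts 0.216 kb from CAPRIN2 in the opposite orientation. It measured 8.56, 9.38 and 10.3 CPM in DMSO, 12.5, 12.4 and 11.2 in tretinoin, 2.28, 2.02 and 2.28 in vemurafenib and 2.03, 1.48 and 2.31 in the combination (log2 fold change -2.11 in vemurafenib, SE 0.16, adjusted p = 5.25e-09). CAPRIN2 itself was at 11.02 CPM in DMSO and 9.70 in vemurafenib (adjusted p = 0.343).

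LINC00707 on chromosome 10, the most abundant of these, measured 29.5, 38.4 and 39.3 CPM in DMSO and 8.77, 9.51 and 9.6 in vemurafenib. LINC00460, another RNA described in carcinomas, went from 6.82 ± 0.870 CPM in DMSO to 2.71 ± 0.0712 in vemurafenib, a 2.5-fold fall. The groups did not overlap in either gene. LINC01363 on chromosome 1 had 46 reads over the DMSO replicates and 3 over the vemurafenib replicates, a ratio of 17.6 with a 95% counting interval of 5.67 to 88.7. LINC01819, LINC01119, LINC02119, LINC00431 and LINC01293 completed the 12 largest falls, with log2 fold changes of -1.89, -1.81, -1.73, -1.21 and -1.04. The call for LINC00431 was lost without DMSO replicate 2 (adjusted p = 0.0603), and 26.1% of its longest transcript is shared with TUBGCP3.

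**Figure D3:**
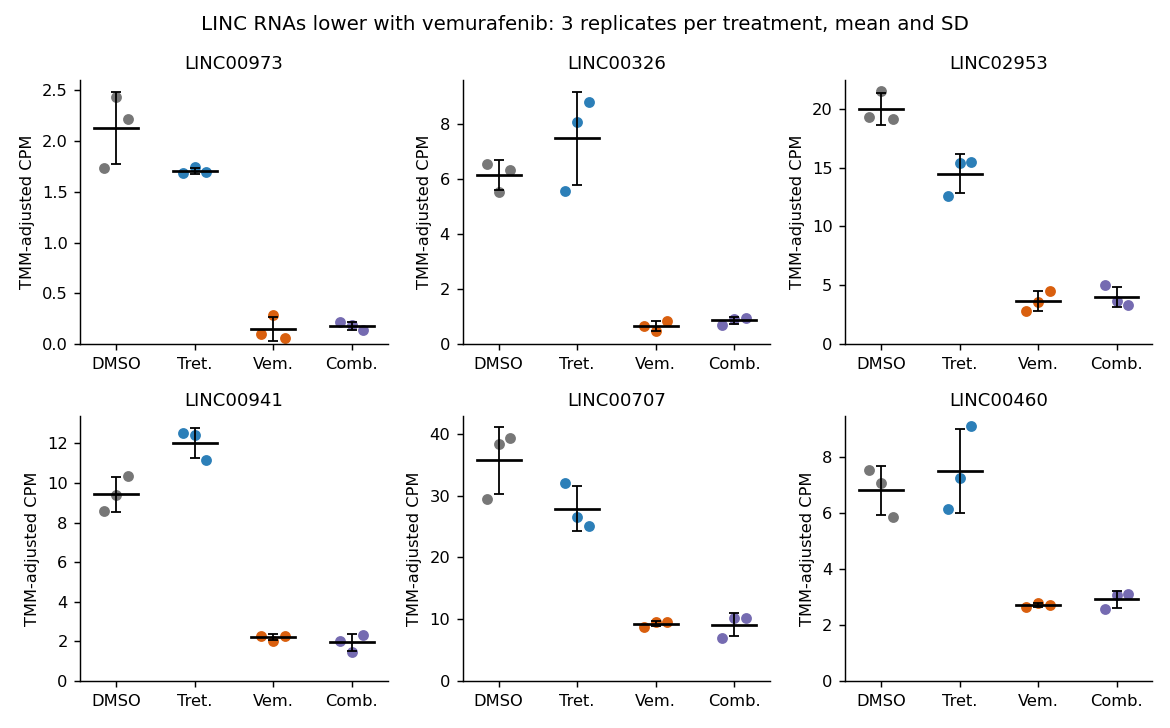
TMM-adjusted CPM of 6 members in each of the 12 samples, by treatment, with the mean (line) and SD (error bar) of 3 replicates and each axis starting at 0. In every panel the vemurafenib and combination samples lie below all DMSO and tretinoin samples.

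Promoter windows are shown for LINC00973, LINC01363 and LINC00460, the members lowered by vemurafenib whose window matched TGANTCA, the pattern searched for AP-1. AP-1 is the FOS and JUN family of transcription factors, which ERK signalling is known to raise. The windows are RefSeq sequence of GRCh38.p14, from 250 bases before to 50 after the annotated start, 5′ to 3′ on the gene's strand. Capitals mark TGANTCA, searched on both strands, where N is any base, so the pattern is looser than a fixed site. The match was TGAGTCA in LINC00973, TGACTCA in LINC00460 and only TGATTCA in LINC01363. The LINC00973 window is chr3:98980805-98981104 (plus strand), that of LINC01363 is chr1:167195756-167196055 (minus strand), and that of LINC00460 is chr13:106376314-106376613 (plus strand), whose start is 2087 bases from the GENCODE 29 start.
LINC00973: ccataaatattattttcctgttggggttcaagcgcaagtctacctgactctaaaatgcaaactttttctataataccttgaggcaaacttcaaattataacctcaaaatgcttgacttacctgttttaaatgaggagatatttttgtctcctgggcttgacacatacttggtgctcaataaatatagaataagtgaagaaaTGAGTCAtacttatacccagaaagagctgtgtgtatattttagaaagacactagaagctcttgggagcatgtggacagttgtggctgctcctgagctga
LINC01363: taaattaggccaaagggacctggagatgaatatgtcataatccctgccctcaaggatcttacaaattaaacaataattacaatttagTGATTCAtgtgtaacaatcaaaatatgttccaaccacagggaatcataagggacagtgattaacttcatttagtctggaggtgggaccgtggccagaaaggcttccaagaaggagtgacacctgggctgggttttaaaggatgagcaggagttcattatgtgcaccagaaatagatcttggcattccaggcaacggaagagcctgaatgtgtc
LINC00460: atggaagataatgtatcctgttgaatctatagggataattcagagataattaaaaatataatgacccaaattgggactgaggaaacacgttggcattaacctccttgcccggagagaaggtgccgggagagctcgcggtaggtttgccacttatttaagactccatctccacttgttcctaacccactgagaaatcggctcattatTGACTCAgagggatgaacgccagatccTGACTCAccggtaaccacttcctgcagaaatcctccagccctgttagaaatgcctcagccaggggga

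Windows were found for 143 of the 227 members. TGANTCA occurred in 10.5% of these and in 7.71% of all 35116 windows in the table, in 3 of the 17 windows of members lowered by vemurafenib (17.6%) and in 5 of 54 of those raised by it (9.26%). The cyclic AMP response element TGACGTCA was in 4.20% of the members' windows and 1.85% of all. The E-box CACGTG was in 4.90% against 7.26%, and the ETS motif CCGGAAGT in 2.80% against 4.14%. These counts describe letters in the windows and not binding.

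Members raised by vemurafenib were led by genes at very low levels in DMSO. Such genes reach the mean of 0.5 CPM only through their treated samples, so their lead follows in part from the membership rule. LINC01451 on chromosome 9 had 3 reads over the DMSO replicates and 54 over the vemurafenib replicates, a ratio of 15.6 with a 95% counting interval of 5.07 to 78.2. LINC03069 on chromosome 18 measured 0.386, 0.0675 and 0.369 CPM in DMSO and 2.28, 2.45 and 2.10 in vemurafenib (log2 fold change 2.98, SE 0.39, adjusted p = 6.02e-06). LINC01770 on chromosome 1 starts head to head with VWA1, 0.288 kb away, and measured 0.451, 0.0675 and 0.211 CPM in DMSO, 1.97, 1.97 and 1.62 in vemurafenib, and 2.91, 3.52 and 2.76 in the combination. VWA1, an extracellular matrix protein gene, was itself at 8.58 CPM in DMSO and 18.9 in vemurafenib (log2 fold change 1.14, SE 0.11, adjusted p = 1.47e-07). LINC00663, LINC01739, LINC01843, LINC02021, LINC02593, LINC00910, LINC00475 and LINC01518 rose by 1.97 to 2.97 on the log2 scale, all from means under 0.4 CPM in DMSO.

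LINC03006 combined a large rise with a higher level. This gene on chromosome 7 (65647010 to 65770810) is typed as a transcribed pseudogene, and 19% of its longest transcript is shared with other genes, INTS4P1 first. It measured 2.25, 1.75 and 2.69 CPM in DMSO, 5.42, 3.48 and 3.83 in tretinoin, 17.5, 12.4 and 16.2 in vemurafenib, and 20.8, 22.8 and 24.0 in the combination. The rise with vemurafenib was 6.77-fold (log2 fold change 2.76, SE 0.18, adjusted p = 1.39e-09). Among the abundant members, LINC00511 rose 2.17-fold (log2 fold change 1.12, SE 0.07, adjusted p = 1.34e-09) and LINC00963 2.37-fold (log2 fold change 1.25, SE 0.11, adjusted p = 5.42e-08). LINC01128 fell from 27.9 ± 3.47 to 17.4 ± 0.410 CPM (adjusted p = 1.32e-05). LINC00461, a brain-expressed RNA beside MEF2C, rose from 2 ± 0.680 to 5.11 ± 1.27 CPM, and MEF2C, a transcription factor of muscle and neurons, from 3.74 to 17.2 CPM. LINC01116 had 8.81 ± 0.652 CPM in DMSO and 9.29 ± 0.467 in vemurafenib, a log2 difference of 0.08 with SE 0.11 (adjusted p = 0.571). LINC00662 had a log2 fold change of 0.30 (SE 0.11, adjusted p = 0.0333), and 5 of the 12 fits that each left out 1 sample put it above the threshold, up to 0.190 without vemurafenib replicate 1.

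Protein-coding neighbours were compared with the members next to them. Of the 26 members that fell with vemurafenib, 12 had a tested protein-coding gene as nearest neighbour within 100 kb. For 9 of the 12 (75.0%) that neighbour also fell, where 29.9% of all tested protein-coding genes fell. Of the neighbours of 69 members not called, 36.2% fell. POLE4 was counted for both LINC01291 and LINC01293, which lie side by side. MYEOV, 57.96 kb from LINC02953, went from 10.8 to 0.958 CPM (log2 fold change -3.47, SE 0.19, adjusted p = 1.12e-10). DCBLD2, a membrane receptor gene 79.4 kb from LINC00973, went from 309 to 121 CPM (log2 fold change -1.36, SE 0.08, adjusted p = 3.61e-10). The neighbour that rose was SAMD11, 64.5 kb from LINC01128 and 2.91 kb from LINC02593, a member that rose. Of the 49 members that rose and had such a neighbour, 30.6% of the neighbours rose and 34.7% fell, beside 27% and 29.9% of all tested protein-coding genes.

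Tretinoin alone changed few members. It raised 5 of the 227 and lowered none, where 3.48% of all genes tested rose and 2.20% fell. Scaled by total counts, 758 genes rose and 174 fell, and again 5 members rose. At an unadjusted p under 0.05 there were 34 members, and DESeq2 called 8 up and 1 down. Replicates lay wholly apart from DMSO upward in 33 members and downward in 7, beside 11.2% and 12.9% of all genes. LINC01819 on chromosome 2 measured 16.5, 11.9 and 15.2 CPM in DMSO, 24.1, 23.1 and 23.8 in tretinoin, 3.99, 3.89 and 3.90 in vemurafenib, and 6.37, 5.94 and 6.28 in the combination. Its 4 groups did not overlap. The rise with tretinoin was 1.62-fold (log2 fold change 0.70, SE 0.11, adjusted p = 0.000512).

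LINC00857 on chromosome 10, 2.14 kb from ANXA11, measured 6.95, 7.29 and 6.54 CPM in DMSO, 10.3, 10.2 and 12.7 in tretinoin, 8.19, 7.83 and 7.5 in vemurafenib, and 15.8, 15.8 and 16.1 in the combination. It rose with tretinoin (log2 fold change 0.69, SE 0.11, adjusted p = 0.00131) and had a log2 difference of 0.18 (SE 0.12, adjusted p = 0.195) with vemurafenib. LINC00622 rose from 2.38 ± 0.299 to 4.22 ± 0.317 CPM with tretinoin (adjusted p = 0.0202) and fell to 1.33 ± 0.347 CPM with vemurafenib. Calls for LINC00511 (log2 fold change 0.36, adjusted p = 0.00932), LINC03006 (0.88, adjusted p = 0.0254) and LINC00622 (0.84) were weaker: leaving out 1 sample gave adjusted p-values of up to 0.0636, 0.137 and 0.0806, the first and the second without DMSO replicate 2 and the third without DMSO replicate 3.

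In the combination, 87 of the 227 members rose and 26 fell relative to DMSO, beside 27.1% and 26.5% of all genes tested. Of the 38 members under 0.5 CPM in DMSO 26 rose, and of the 189 others 61 rose and 26 fell. Scaled by total counts, 110 members rose and 23 fell, beside 6242 and 2916 of all genes. The median log2 fold change was 0.45 over the members and 0.03 over all genes. Replicates lay wholly above DMSO in 98 members and wholly below in 29, beside 30.9% and 30.5% of all genes. The calls ran from a fall by 4.07 in LINC01363 (3 reads in the combination) to a rise of 3.68 in LINC01451 on the log2 scale. LINC01770 reached 3.62 (SE 0.42, adjusted p = 1.20e-06) and LINC03006 3.31 (SE 0.18, adjusted p = 7.01e-11). LINC02551, 9.88 kb from SNX19, went from 1.80 ± 0.268 CPM in DMSO to 6.21 ± 0.317 in vemurafenib and 8.60 ± 1.09 in the combination. LINC00861 and LINC02606 rose to 1.22 ± 0.180 and 2.63 ± 0.326 CPM from 0.162 ± 0.0293 and 0.6 ± 0.183 in DMSO. LINC01451, LINC01770 and LINC00861 were under 0.5 CPM in DMSO, so the membership rule bears on their rises too. LINC02591 fell from 4.06 ± 0.738 to 1.85 ± 0.456 CPM (adjusted p = 0.00197), but 99.9% of its longest transcript matches other genes, LINC01145 first, so its reads cannot be assigned with certainty. LINC00189, which overlaps BACH1, fell from 1.19 ± 0.393 to 0.523 ± 0.184 CPM (adjusted p = 0.0120), a call lost without DMSO replicate 3 (adjusted p = 0.0697). BACH1 shares 30.7% of its longest transcript and fell too (log2 fold change -0.42, adjusted p = 0.00188), so reads of LINC00189 cannot be assigned with certainty either.

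Relative to tretinoin alone, 68 members rose and 25 fell in the combination, beside 24.1% and 25.0% of all genes tested. Scaled by total counts, 75 members rose and 23 fell, beside 5051 and 3271 of all genes. Replicates did not overlap in 84 members upward and 31 downward, beside 27.7% and 27.5%. The extremes were LINC01739, at 3 reads in tretinoin and 56 in the combination (ratio 14.8, 95% counting interval 4.82 to 74.1), and LINC01363, at 63 reads in tretinoin and 3 in the combination. Both passed the limit on the mean through the groups where they were high.

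Relative to vemurafenib alone, 8 members were higher in the combination and none lower, beside 2.27% higher and 2.20% lower among all genes. At an unadjusted p under 0.05 there were 24 members, and DESeq2 called 8 up and 0 down. Replicates did not overlap in 34 members upward and 8 downward, beside 11.7% and 12.5% of all genes. LINC02119 on chromosome 5 (38148480 to 38153715) measured 6.05, 3.98 and 4.74 CPM in DMSO, 6.88, 6.04 and 8.26 in tretinoin, 1.40, 1.63 and 1.38 in vemurafenib, and 4.72, 6.40 and 6.28 in the combination. Vemurafenib samples stood below all others, and the combination overlapped with DMSO. The combination was 3.93-fold above vemurafenib (log2 fold change 1.98, SE 0.21, adjusted p = 7.40e-06).

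LINC01293 and its neighbour LINC01291, between 74918148 and 74942670 on chromosome 2, moved alike. LINC01293 measured 3.09, 3.10 and 4.48 CPM in DMSO, 4.76, 3.66 and 5.58 in tretinoin, 1.40, 1.92 and 1.92 in vemurafenib, and 4.39, 3.94 and 4.43 in the combination. LINC01291 measured 2.58, 1.82 and 2.53 CPM in DMSO, 2.27, 2.79 and 2.57 in tretinoin, 1.19, 1.01 and 1.26 in vemurafenib, and 3.02, 3.06 and 2.44 in the combination. Their log2 fold changes in the combination relative to vemurafenib were 1.28 (SE 0.21, adjusted p = 0.000975) and 1.30 (SE 0.22, adjusted p = 0.00112). LINC00857 was 2.03-fold above vemurafenib alone (adjusted p = 5.86e-06). LINC01819 (0.66), LINC02302 (2.05), LINC03006 (0.55) and LINC00511 (0.27) were also called, and LINC00511 passed in only 6 of 12 fits that left out 1 sample, LINC03006 in 9 and LINC02302 in 10, with the largest adjusted p-values without vemurafenib replicate 2 (0.200 and 0.169) and vemurafenib replicate 1 (0.0702).

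**Figure D4:**
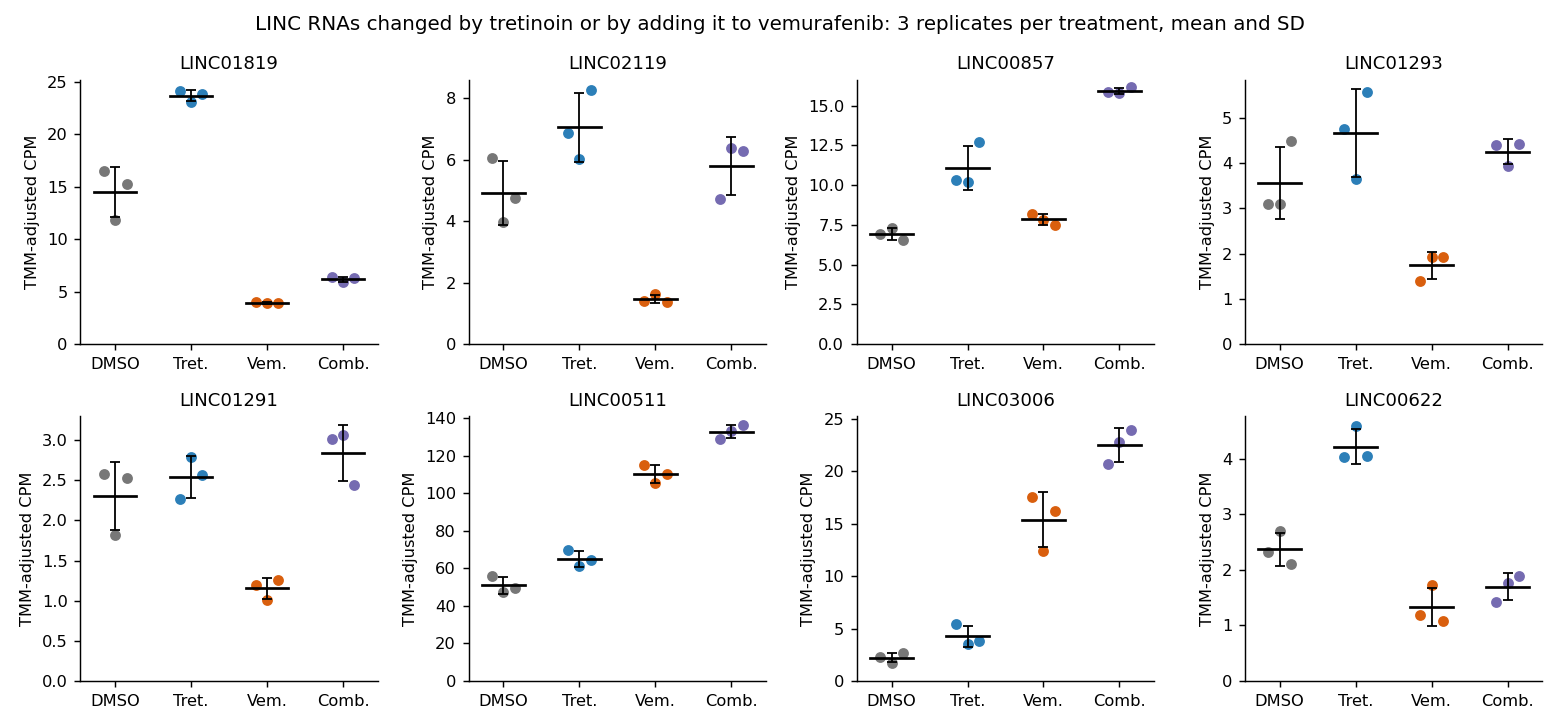
TMM-adjusted CPM of 8 members in each of the 12 samples, by treatment, with the mean (line) and SD (error bar) of 3 replicates and each axis starting at 0. LINC02119, LINC01293 and LINC01291 are low in vemurafenib alone, whereas LINC00857 is highest in the combination, at 15.8, 15.8 and 16.1 CPM.

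The windows of LINC02119 and LINC03006 are shown because both answered to tretinoin added to vemurafenib. Neither held the patterns searched for the retinoic acid receptor motifs DR5 and DR2. The same was true of the 6 members with a window that were called with tretinoin alone or on its addition to vemurafenib. The patterns were direct repeats of 1 short half-site on either strand, with only 1 base of the half-site left free. They were in 0.0797% and 0.0541% of all windows. At such low rates 6 windows are too few to expect a match, and other spellings of the half-site were not searched. The absence therefore does not show whether these windows hold retinoic acid receptor elements. LINC02119 is chr5:38148230-38148529 (plus strand) with no match to any motif searched. LINC03006 is chr7:65770761-65771060 (minus strand), and capitals mark TGACGTCA.
LINC02119: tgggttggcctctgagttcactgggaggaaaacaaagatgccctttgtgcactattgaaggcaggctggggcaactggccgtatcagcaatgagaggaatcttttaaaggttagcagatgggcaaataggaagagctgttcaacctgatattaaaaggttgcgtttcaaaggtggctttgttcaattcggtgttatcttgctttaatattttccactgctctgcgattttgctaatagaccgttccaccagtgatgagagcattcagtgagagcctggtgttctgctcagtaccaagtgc
LINC03006: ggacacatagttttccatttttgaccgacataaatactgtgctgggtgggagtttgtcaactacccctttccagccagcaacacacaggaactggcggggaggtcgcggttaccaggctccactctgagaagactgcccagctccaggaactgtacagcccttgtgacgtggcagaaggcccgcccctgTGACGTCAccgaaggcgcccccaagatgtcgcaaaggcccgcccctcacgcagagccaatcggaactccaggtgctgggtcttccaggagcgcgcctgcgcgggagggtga

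The response to tretinoin was also compared between cells with and without vemurafenib, as the interaction of the drugs. It was called in 1 member upward and in none downward, beside 0.382% and 0.424% of all genes, with 19 members at an unadjusted p under 0.05 and 1 up and 0 down by DESeq2. That member was LINC02119, with a difference of 1.45 on the log2 scale (SE 0.28, adjusted p = 0.0163). Its tretinoin samples were 1.44-fold DMSO (adjusted p = 0.0926), and the combination was 3.93-fold above vemurafenib. The call was lost without vemurafenib replicate 1, vemurafenib replicate 3 or combination replicate 2, with an adjusted p of up to 0.0623.

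**Figure D5:**
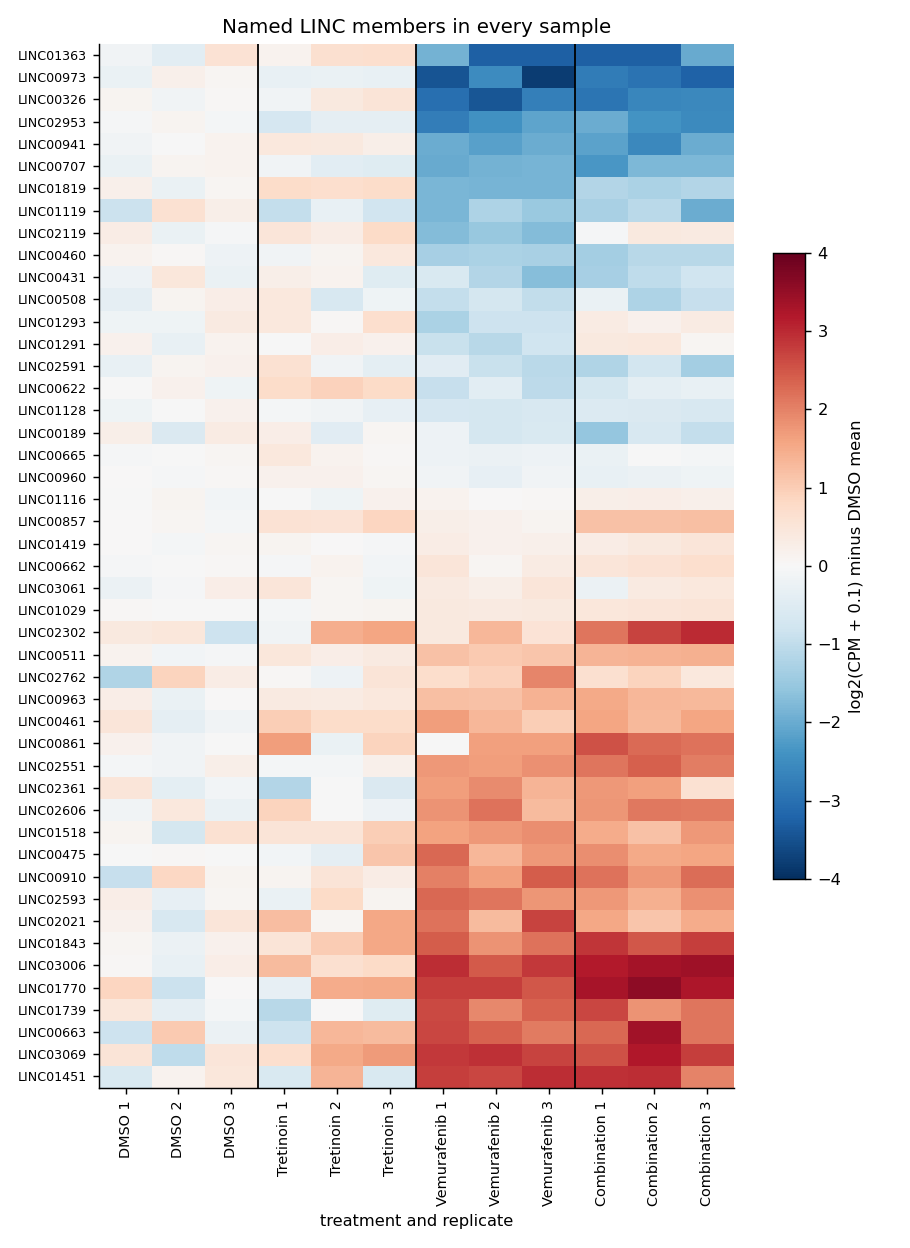
Rows are the 47 members named by rule and columns the 12 samples, coloured by log2(CPM + 0.1) minus the mean of the 3 DMSO samples, from blue (lower) to red (higher). The vemurafenib and combination columns differ most from DMSO, and LINC02119, LINC01293 and LINC01291 are blue in vemurafenib and near white or pale red in the combination.

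Other long noncoding RNAs with established names gave a comparison. Of 35 listed, 28 were tested. With vemurafenib 11 rose and 6 fell, beside 26.4% and 26.3% of all genes tested, with a median log2 fold change of 0.24. MALAT1, a nuclear RNA of splicing speckles, was at 326 CPM in DMSO, 479 in vemurafenib and 723 in the combination. CYTOR was at 36.9 CPM in DMSO and 8.04 in vemurafenib. With tretinoin 1 of the 28 rose and none fell, beside 3.48% and 2.20% of all genes. In the combination relative to vemurafenib 3 rose and none fell, beside 2.27% and 2.20%.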

How the data were processed

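The authors aligned paired reads from stranded poly(A) libraries to GRCh38.p10 with STAR 2.5.3a, as named in the submitters' processing notes and methods, and deposited raw counts per gene of GENCODE 27, counted in union mode with the strand ignored. Antisense and overlapping genes therefore cannot be told apart. Groups and replicate numbers came from the sample titles. Members and gene lists were chosen with earlier results of these data known. Symbols were matched by Ensembl identifier for 41836 of 58347 genes, and positions for 58084 in GENCODE 29. With that annotation's symbols the rule gives 198 members, 180 of them shared.

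Genes were filtered by filterByExpr (16740 left) and TMM-normalized with R 4.3.3 and edgeR 4.0.16. All 12 samples entered 1 quasi-likelihood fit by treatment, without a block, and p-values were Benjamini-Hochberg adjusted within each of 6 comparisons at 0.05. The SE is the log2 fold change divided by the square root of F. The interaction is (combination - vemurafenib) - (tretinoin - DMSO). The fitting steps were run on simulated counts with few genes changed, equally up and down, and the same spread for every gene. In these data many genes were called, so that run does not check the scaling or the calls at low levels. Depth was 13510235 to 21534377 counts per sample, so a member near 0.5 CPM has few reads per sample, and intervals cover counting error only. Named members were the 8 most abundant, up to 12 rises and 12 falls per main comparison with replicates apart, every member called in the tretinoin, combination against vemurafenib and interaction comparisons, the 5 extremes of the combination against tretinoin, those at the limit, and members with cancer names. Shared sequence was found with blastn 2.17.0 (150 bases, 98% identity). Alternatives were DESeq2 1.42.0, RLE and total-count scaling, no filter, only the groups compared, a replicate block, and each sample left out. Replicates differed by more than counting noise (chi-square per degree of freedom 2.69 to 24.4). Same-numbered samples did not deviate together (correlation -0.143 to 0.0872 over 18 pairs).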

Additional observations from a re-analysis of the deposited data

Results flagged for a closer look

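LINC02119 was singled out because its response to tretinoin differed between cells with and without vemurafenib: the interaction was 1.45 on the log2 scale (SE 0.28, edgeR adjusted p = 0.0163). The combination was higher than vemurafenib in 3 of 3 samples, and the tretinoin samples at 6.88, 6.04 and 8.26 CPM overlapped with DMSO at 6.05, 3.98 and 4.74 CPM.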

How the results depend on the processing

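The number of members raised by tretinoin depended most on the processing: 5 became 8 with DESeq2, 12 without the low-count filter and 2 with only the groups compared, and the number lowered, 0, became 1 with DESeq2 and 2 without the filter. With only the groups compared 1 member was lower in the combination than in vemurafenib, and without the filter 1 had a negative interaction. Scaling by total counts moved the median log2 fold change of the members to 0.2066 for tretinoin, 0.5282 for vemurafenib, 0.6164 for the combination, 0.3923 for the combination against tretinoin and -0.129 for the interaction, while the median of all genes moved to 0.2141 for vemurafenib and 0.1872 for the combination. Relative to all genes, the members' median was 0.3141 for vemurafenib under that scaling and 0.3137 under TMM. Scaling shifts every gene of a comparison by nearly the same amount, so this difference could hardly change and does not test the scaling. The summed CPM differences then were 130.9 (tretinoin), 316.4 (vemurafenib), 407.3 (combination) and 276.4 (combination against tretinoin), and 241.1 for the combination without the most abundant member under TMM.

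Leaving out each sample in turn gave 3 to 7 members raised and 0 to 1 lowered by tretinoin, with a median of 0.0717 to 0.1666, 57 to 80 raised and 22 to 29 lowered by vemurafenib, 71 to 93 and 22 to 28 in the combination, 5 to 9 higher and 0 to 1 lower in the combination than in vemurafenib, and 0 to 1 with a positive interaction. The lowest tretinoin count, 3, came without DMSO replicate 2, and the lowest count against vemurafenib, 5, without combination replicate 3. The 47 named members had 127 calls over the 6 comparisons, and in these refits 1465 of the repeated calls kept their side of the threshold and 59 lost it. With the replicate number as a block, 7 members were raised by tretinoin, 71 rose and 26 fell with vemurafenib, and of the 127 calls 2 were lost, LINC00861 (adjusted p = 0.0610) and LINC00662 (adjusted p = 0.0520), both with vemurafenib. The cause of these shifts was not tested. Counts of 3 reads or fewer limit LINC01363, LINC01451 and LINC01739.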
